A study of Mus musculus with 6 samples.

Results

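The pre-B cell receptor (pre-BCR) chains examined here are 5 genes, Vpreb1, Vpreb3, Igll1, Cd79a and Cd79b, out of 18193 genes with a probe set named for 1 gene. They were chosen by gene symbol, and every probe set whose platform symbol is exactly one of them was kept, which gave 6 probe sets. Igll1 has 2 of these and the other genes 1 each. Expression was measured on arrays in cultured mouse pro-B cells of the Pax5-/- genotype, which both groups share. Pax5 is the factor that normally fixes the B lineage choice of pro-B cells, and the cells used here lack it. One group received the Mig-EBF retrovirus, which carries EBF, and the other the control retrovirus MigR1. All cells were grown on the stromal line ST2 with 5 ng/ml IL-7 and sorted for GFP 2 days after infection. Each group has 3 arrays, called EBF 1 to 3 and control 1 to 3 after the labels. The labels name no separate cultures or animals, so the p-values reflect only the spread among these arrays, and that spread may be technical.

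The pre-BCR is the receptor of developing B cells that carries a heavy chain before any light chain has been made. Vpreb1 and Igll1 (lambda5) encode the parts of the surrogate light chain that pairs with the heavy chain, and Cd79a (Ig-alpha) and Cd79b (Ig-beta) encode the membrane partners whose cytoplasmic tails pass on the signal. Vpreb3 encodes a protein related to Vpreb1 that associates with immunoglobulin chains inside the cell. EBF and the E protein E2A are known as activators of surrogate light chain and Cd79 genes, and Pax5 also acts at the Cd79a promoter.

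The promoters are shown because the comparison is between cells with and without added EBF, and the calls varied among these genes. RefSeq promoter windows on build GRCm38.p6 were found for 4 of the 5 genes, and the 250 bases before each start site are printed here 5′ to 3′ on the strand of the gene. Capitals mark matches to 5 motifs, searched on both strands and chosen with the sequences in view. These were the full palindrome described for EBF (TCCCNNGGGA), its core (CCCNNGGG), the letters CAAGGG of the EBF site described in the Cd79a promoter, the E-box CAGGTG bound by E2A, and the octamer ATTTGCAT of immunoglobulin promoters. The core lies inside the full palindrome. The windows are those of Vpreb3 (chr10:75948050-75948299, plus strand), Igll1 (chr16:16863986-16864235, minus strand), Vpreb1 (chr16:16869256-16869505, minus strand) and Cd79a (chr7:24897247-24897496, plus strand).
Vpreb3: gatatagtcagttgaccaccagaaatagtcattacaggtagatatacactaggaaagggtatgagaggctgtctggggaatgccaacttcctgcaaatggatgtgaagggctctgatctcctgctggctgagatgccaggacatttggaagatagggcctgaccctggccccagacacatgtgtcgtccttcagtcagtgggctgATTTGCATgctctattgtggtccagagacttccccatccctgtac
Igll1: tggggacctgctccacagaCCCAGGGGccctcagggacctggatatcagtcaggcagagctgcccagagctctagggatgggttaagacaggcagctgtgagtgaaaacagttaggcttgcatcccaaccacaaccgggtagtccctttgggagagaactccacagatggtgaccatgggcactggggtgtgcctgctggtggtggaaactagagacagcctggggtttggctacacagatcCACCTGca
Vpreb1: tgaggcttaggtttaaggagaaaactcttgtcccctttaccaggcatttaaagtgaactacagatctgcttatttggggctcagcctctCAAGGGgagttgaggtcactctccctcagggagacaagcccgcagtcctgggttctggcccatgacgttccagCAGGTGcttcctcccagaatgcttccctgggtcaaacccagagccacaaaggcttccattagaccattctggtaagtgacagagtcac
Cd79a: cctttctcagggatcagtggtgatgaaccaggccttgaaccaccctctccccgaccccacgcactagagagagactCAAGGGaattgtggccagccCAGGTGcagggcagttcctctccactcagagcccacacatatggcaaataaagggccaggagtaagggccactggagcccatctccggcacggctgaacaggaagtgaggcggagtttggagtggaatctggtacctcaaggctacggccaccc

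The full palindrome was in 0 of the 4 windows, against 0.779% of all 32851 promoter windows of this length. The Cd79a window holds CAAGGG from base 174 to base 169 before the start and CAGGTG from base 154 to 149. The Vpreb1 window holds the same pair, CAAGGG at 161 to 156 and CAGGTG at 88 to 83. Of all windows, 15% hold CAAGGG and 17.2% hold CAGGTG, in either orientation. The Igll1 window holds the core as CCCAGGGG at 231 to 224, a motif found in 11.8% of all windows, and CAGGTG read on the other strand at 8 to 3. The Vpreb3 window holds the octamer at 45 to 38, which 1.6% of all windows hold, and no match to the other motifs. Igll1 and Vpreb1 are neighbours on chromosome 16, on the same strand, with starts 5270 bases apart. The CAAGGG match of Cd79a follows from the choice of that motif. A match describes letters only and is not evidence of binding, and a missing match does not show that a site is absent.

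Values are probe set intensities on a linear scale, and differences are EBF minus control on log2(intensity + 32), with limma's standard error (SE) and 95% interval. A probe set was called where its Benjamini-Hochberg adjusted p over all 45037 tested probe sets was below 0.05. The arrays were alike in brightness, with medians from 424 to 451. The 27 control probe sets for Bacillus transcripts, which mouse RNA should not light up, reached 410.4 at most, and readings below this are treated as dim. Within their groups EBF 3 and control 2 stood farthest from the other arrays. Over the brighter part of the probe sets, EBF 3 differed from the mean of the other EBF arrays by a root mean square of 0.226 (log2) and control 2 from the other controls by 0.186, and the remaining arrays by 0.15 to 0.183.

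Same-numbered EBF and control arrays deviated together from their group means (correlations of 0.318, 0.255 and 0.503 for numbers 1, 2 and 3). Unlike numbers gave correlations from -0.371 to 0.058, but these values are not independent, since the deviations within a group cancel out. On this ground the numbers were taken as pairs, and the fit with the number as a block is given where it changes a call. The labels state no pairs, and the pairing was read from the same arrays that the block is applied to. Calls made only with the block are therefore less secure. The block raises the calls over all probe sets from 394 (0.875%) to 3280 (7.28%).

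Of the 6 probe sets, 1 was called higher and 0 lower, against 0.344% called higher and 0.531% called lower among all tested. With the replicate block 3 were called higher and 0 lower, against a background of 4.88% and 2.4%. In 4 of the 6, all EBF arrays read above all control arrays, a pattern that 15.5% of all probe sets show, and in 0 the reverse held (7.67% of all). Without the block, 4 had an unadjusted p below 0.05 in either direction, as did 18.9% of all probe sets. These were Vpreb3, the brighter Igll1 probe set and Cd79b, which were higher, and Cd79a, which was lower. Vpreb1 was not among them. By these calls Vpreb3 rose, Igll1 and Cd79b were higher past the threshold only with the block, and Vpreb1 and Cd79a were called in neither fit. Which genes passed the threshold does not show that their changes differ from each other.

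**Figure D1:**
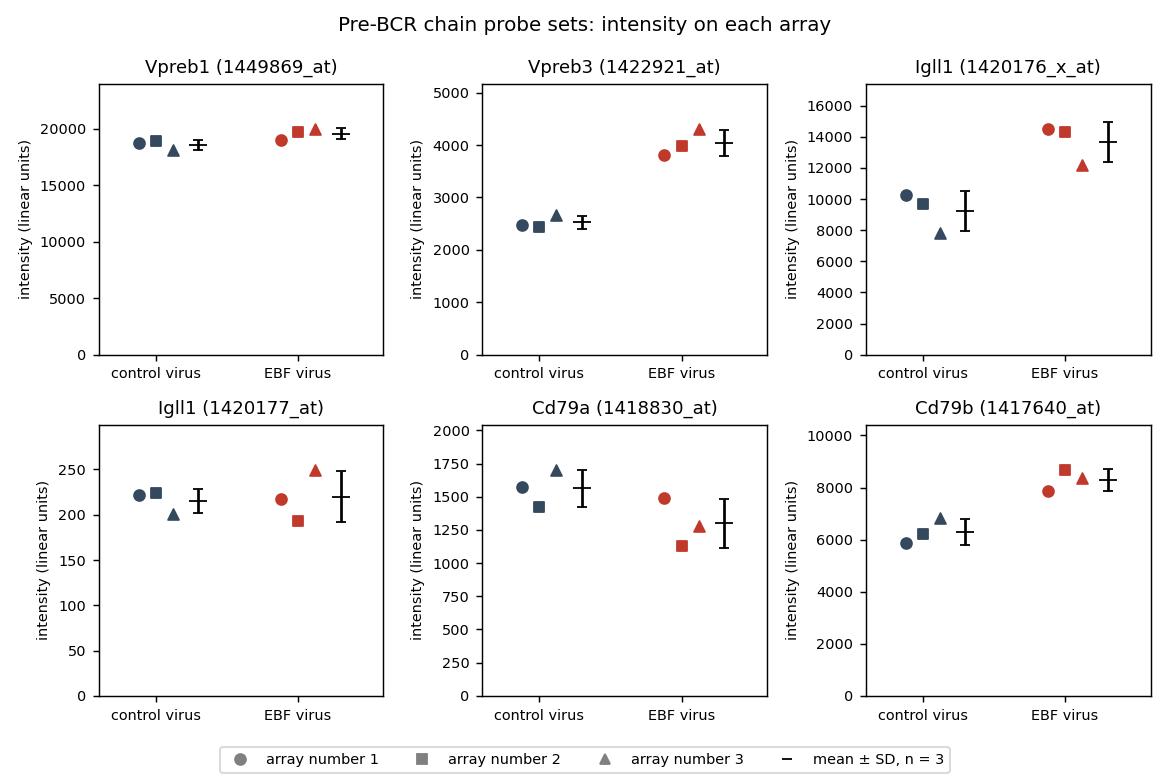
Intensity of each probe set (linear units, each axis starting at 0) on the 3 control and 3 EBF arrays. Symbols give the array number, and the black bar is the mean ± SD (n = 3). Vpreb3, the brighter Igll1 probe set, Cd79b and Vpreb1 have EBF arrays above all controls, by a narrow margin for Vpreb1, while the dimmer Igll1 probe set and Cd79a overlap.

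In the surrogate light chain, the chain that reads as the variable part hardly differed at the probe set named for it alone. Vpreb1 (probe set 1449869_at) read 18983, 19687 and 19979 on EBF 1 to 3 and 18709, 18884 and 18067 on control 1 to 3. The groups did not overlap, but EBF 1 lay only just above control 2. The log2 difference was 0.08 ± 0.07 (SE, n = 3 per group; adjusted p = 0.567), and its 95% interval ran from -0.08 to 0.23. On the fold scale this interval is 0.947 to 1.17, so that an increase larger than 1.17-fold lies outside it. The highest reading of any probe set was between 28488 and 30067 on each array. Whether the signal still follows the amount of RNA at the level of Vpreb1 was not tested.

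One further probe set, 1422416_s_at, is listed for both Vpreb2 and Vpreb1 and is not counted as a member, since its signal cannot be assigned to one of these closely related genes. It read 15949, 16275 and 14904 on the EBF arrays and 13575, 13315 and 12046 on the controls. All EBF arrays were higher, with a log2 difference of 0.28 ± 0.08 (SE, n = 3 per group; adjusted p = 0.147, and 0.0549 with the replicate block). The interval, 0.10 to 0.46, overlaps that of the Vpreb1 probe set, but the estimate lies above the upper limit of 0.23 there. A larger change of Vpreb1 than its own probe set shows was therefore not excluded.

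Igll1, the constant-like part of the surrogate light chain, differed more. Its brighter probe set, 1420176_x_at, read 14518, 14283 and 12201 on EBF 1 to 3 and 10286, 9654 and 7789 on control 1 to 3. The lowest EBF array lay above the highest control, and array number 3 was the lowest of both groups. The mean was 13668 ± 1275 (SD, n = 3) against 9243 ± 1298 (SD, n = 3), a log2 difference of 0.57 ± 0.12 (SE), or 1.48-fold with a 95% interval of 1.23 to 1.79. The adjusted p was 0.0788, 0.00409 with the replicate block and 0.02 when EBF 3 was left out. It stayed above the threshold when any other array was left out (highest 0.284). Within numbers 1, 2 and 3 the EBF array exceeded its control by 0.50, 0.56 and 0.65. Probe sets of this suffix can contain probes shared with other transcripts, so part of this signal may not be Igll1.

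The other Igll1 probe set, 1420177_at, gave a different picture. It read 217.2, 193.2 and 249.4 on the EBF arrays and 221.5, 224.3 and 200.4 on the controls, below the highest Bacillus reading throughout. The groups overlapped, and the log2 difference was 0.02 ± 0.10 (SE, n = 3 per group; adjusted p = 0.921). Its sign turned to -0.02 after quantile normalization and to -0.004 after scaling to a common median.

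Vpreb3 was the gene called in the fit of all arrays. Its difference was the largest of the 5 genes there, but Igll1 had the larger one without EBF 3 (0.65 against 0.62) and without EBF 3 and control 2 together (0.68 against 0.60). Probe set 1422921_at read 3815, 3987 and 4311 on EBF 1 to 3 and 2466, 2445 and 2663 on control 1 to 3. Every EBF array exceeded every control by a wide margin. The difference of 0.67 ± 0.08 (log2, SE, n = 3 per group) is 1.59-fold, with an interval of 1.41 to 1.80, and its adjusted p was 0.0093, and 0.00157 with the block. By p-value it ranked 87 among the 45037 probe sets. Within numbers 1, 2 and 3 the difference was 0.62, 0.70 and 0.69. The call was lost without EBF 2, control 1 or control 2 (adjusted p 0.0595, 0.059 and 0.0635), while the difference stayed between 0.62 and 0.71 without any 1 array.

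**Figure D2:**
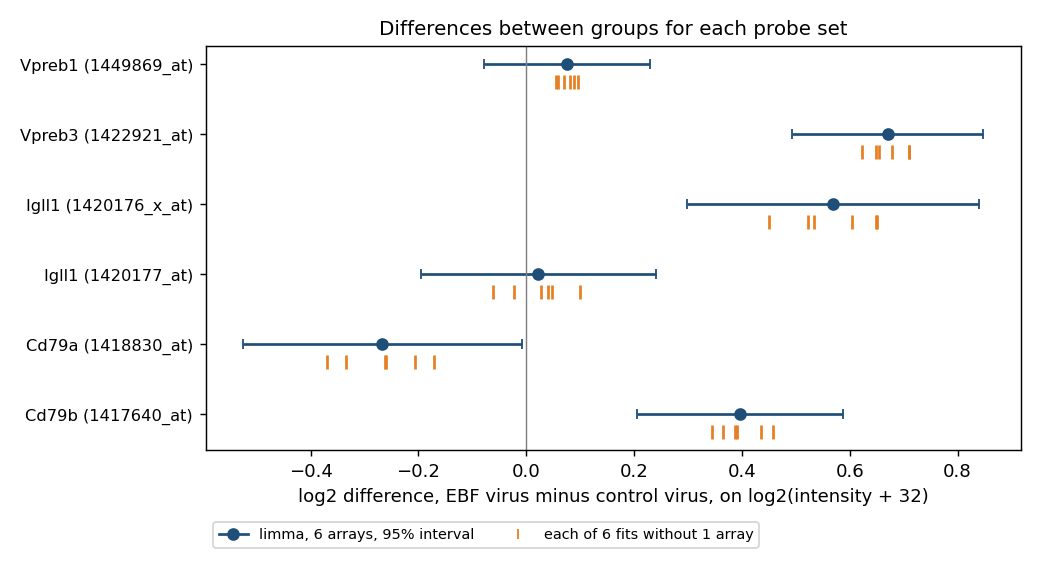
Log2 difference, EBF minus control, for each probe set. Points and bars are limma's estimate and 95% interval from 6 arrays, and ticks are the 6 estimates obtained without 1 array each. The interval of Vpreb3 runs from 0.49 to 0.85, and that of Vpreb1 includes 0.

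Of the signalling chains, Cd79b was higher and Cd79a lower on average in the EBF arrays. Cd79b (1417640_at) read 7852, 8671 and 8365 on EBF 1 to 3 and 5854, 6213 and 6843 on control 1 to 3. The groups did not overlap. The log2 difference was 0.40 ± 0.08 (SE, n = 3 per group), or 1.32-fold with an interval of 1.15 to 1.50. Its adjusted p of 0.0808 became 0.0191 with the replicate block and 0.041 when EBF 3 was left out. It stayed above the threshold when any other array was left out (highest 0.291). Within numbers 1, 2 and 3 the log2 difference was 0.42, 0.48 and 0.29.

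Cd79a (1418830_at) read 1492, 1126 and 1279 on EBF 1 to 3 and 1572, 1419 and 1701 on control 1 to 3. EBF 1 lay inside the range of the controls, so the groups overlapped, although each EBF array read below the control of its number. The log2 difference was -0.27 ± 0.11 (SE, n = 3 per group). Its unadjusted p of 0.0448 became 0.253 after adjustment, and 0.0924 with the block. The interval of this single probe set, -0.53 to -0.01, holds no increase.

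**Figure D3:**
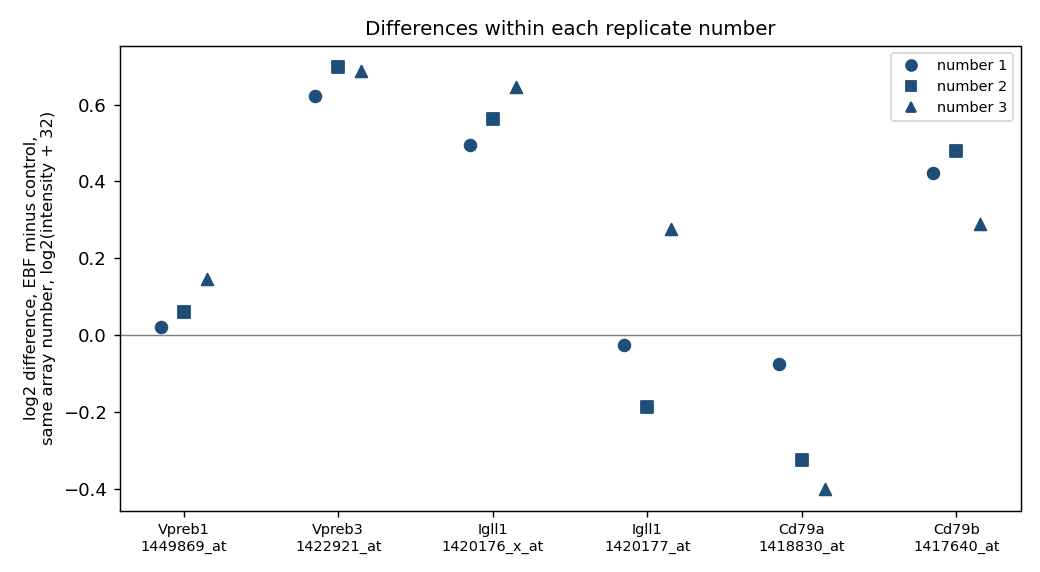
Log2 difference between the EBF and the control array of the same number, for each probe set. Vpreb3, the brighter Igll1 probe set, Cd79b and, by less, Vpreb1 (0.021, 0.06 and 0.145) are above 0 in all 3 numbers. Cd79a is below 0 in all 3 (-0.07, -0.33 and -0.40), and the dimmer Igll1 probe set lies on both sides.

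Pairs of these chains were also compared within each array. The log2 ratio of Cd79b to Cd79a within an array lay between 2.37 and 2.91 in the EBF arrays and between 1.88 and 2.11 in the controls, a shift of 0.66. The ratio of Igll1 to Vpreb1 shifted by 0.49 and that of Vpreb3 to Vpreb1 by 0.60, taking the brighter Igll1 probe set; with the mean of both Igll1 probe sets the shift against Vpreb1 was 0.22. The EBF and control arrays did not overlap in any of the 3 ratios taken at the brightest probe sets. How many other pairs of probe sets separate in this way was not counted. The ratios restate the differences given above for the single genes and are not further evidence of them. The two-sided exact permutation test gave p = 0.1 for each, also after adjustment over the 3 pairs, and 0.1 is the smallest p that 3 against 3 arrays allow, so this test cannot call a difference. Ratios of intensities from different probe sets are not ratios of RNA amounts.

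The genes also differed in which arrays of a group were high. Among the controls, array 3 was the lowest for Vpreb1 and the brighter Igll1 probe set and the highest for Vpreb3, Cd79a and Cd79b. Relative to the control mean, control 3 stood at -0.24 (log2) for Igll1 and at 0.08 for Vpreb3 and 0.12 for Cd79a and Cd79b. The spread between arrays of a group was widest for Igll1 among the genes that did not overlap, with an SE of 0.12 against 0.07 to 0.08 for the others. The block on array number lowered that SE to 0.08.

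Among 18679 brighter probe sets of other genes, those with the pattern most like each gene over the 6 arrays were found by Pearson's r on the log2 scale. For Vpreb3 they were Rab43 (r = 0.997) and Parp1 (0.996), a DNA damage sensor. Igll1 was matched by Txnrd3 (0.999), a thioredoxin reductase, and Lzic (0.998), and Cd79b by Gimap7 (0.990) and Mettl1 (0.990), a tRNA methyltransferase. For Cd79a the closest were Cyb5r3 (0.995), a cytochrome b5 reductase, and Spn (0.991), the sialoglycoprotein CD43. Vpreb1 was matched by Wbp11 (0.987) and Fgfrl1 (0.985). With only 6 arrays, r above 0.9 was common, from 101 probe sets for Cd79a to 1020 for Igll1, and it partly reflects the group difference that the genes share. Of these 10 genes Rab43 was the one called, with a log2 difference of 0.47 (adjusted p = 0.0287). It lost the call when any 1 array other than EBF 3 was left out (highest adjusted p 0.146), and Txnrd3, at 0.58, passed only with the block (0.0694, blocked 0.00329).

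Of 34 listed genes of pre-BCR and BCR signalling, 31 had a probe set named here, and 0 were called higher and 2 lower, against 0.418% and 0.671% of all genes. At an unadjusted p below 0.05, 1 was higher and 9 lower, where 13.5% of all genes were higher and 6.23% lower. Their median log2 difference was -0.09, beside 0.03 over all genes. With the block 0 were higher and 5 lower, against 4.82% and 2.52% of all genes.

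Lat2, which encodes an adaptor of B cells and myeloid cells, read 1070, 1150 and 1045 on EBF 1 to 3 and 2303, 2170 and 2063 on control 1 to 3. It fell by 0.98 (log2; SE 0.08, n = 3 per group; adjusted p = 0.00165). Pik3r1, the regulatory subunit of PI3 kinase, read 4246, 3838 and 4163 against 6640, 6061 and 5645 and fell by 0.58 (SE 0.09, n = 3 per group; adjusted p = 0.0237). Both had EBF arrays below every control. Lat2 kept the call in each of the 6 fits that left out 1 array (highest adjusted p 0.0186). Pik3r1 lost it when EBF 1, EBF 2, control 1 or control 2 was left out (highest adjusted p 0.13). In those fits 1 gene of the list was lower. Leaving out EBF 3 gave 5, but it also raised the probe sets called lower from 239 to 1242 of all 45037.

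Of the kinases and adaptors that act early after the receptor, 4 are given here that were called in neither fit; Lyn had no probe set named here. Syk, the kinase recruited to the Cd79 tails, had a log2 difference of 0.04 with an interval of -0.12 to 0.20. Btk, a kinase acting after Syk, had 0.09 (-0.11 to 0.29), and Plcg2, the phospholipase it activates, -0.09 (-0.25 to 0.06). Blnk, the adaptor that links them, read 288 and 274 on average, within the range of the Bacillus controls, so its difference of 0.06 is that of a dim probe set. These 4 were singled out for their place in the pathway after their values were seen.

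**Figure D4:**
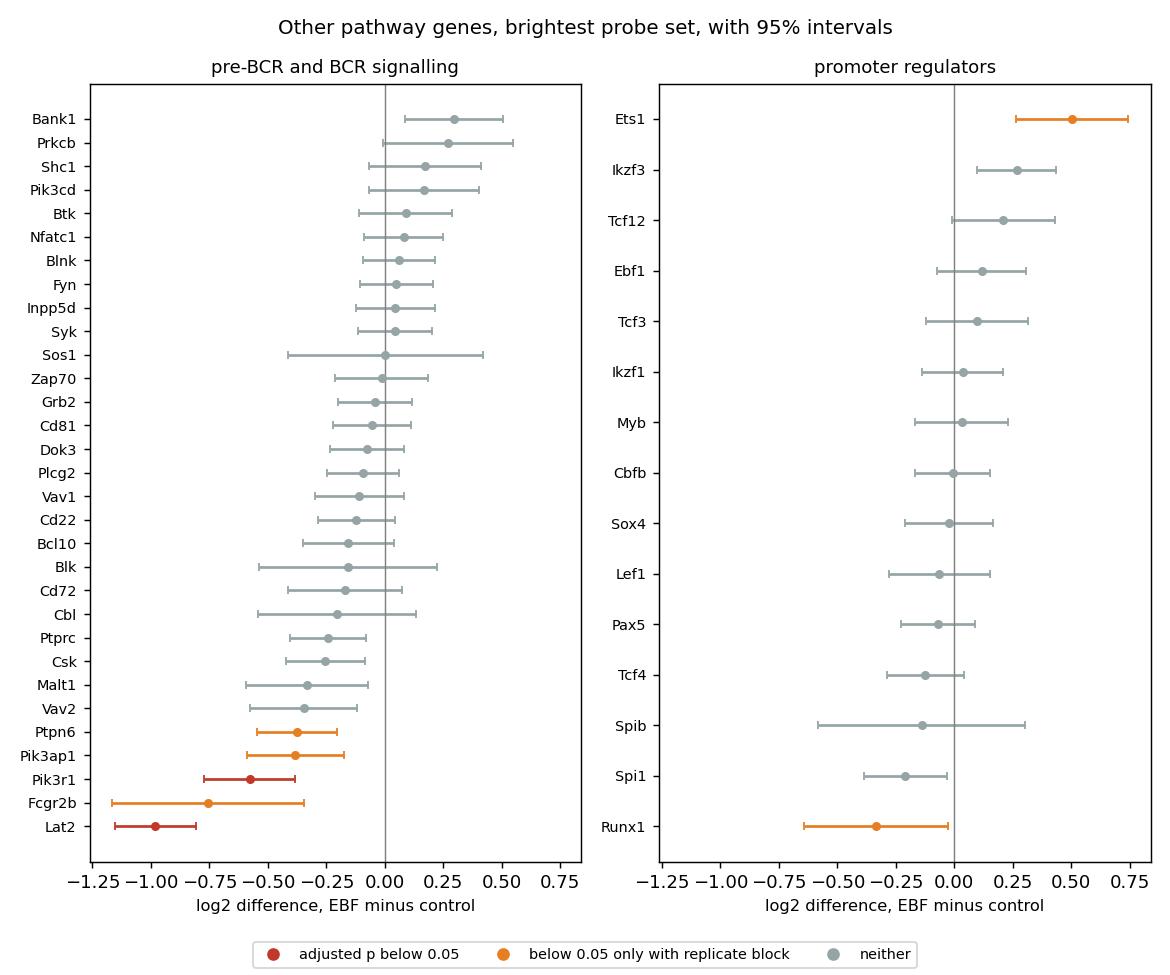
Log2 difference, EBF minus control, with 95% interval for the brightest probe set of each gene of the signalling list (left) and of the regulators described at these promoters (right). Lat2 at -0.98 and Pik3r1 at -0.58 passed the threshold, and those in orange passed it only with the replicate block.

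Of 10 listed immunoglobulin chain genes, among them the surrogate light chain gene Vpreb2, 4 had a probe set named here, and Vpreb2 was not one of them. Of these 4, 0 were called in either direction by limma, also with the block, and 0 had an unadjusted p below 0.05. Their median was -0.09. Ighm, the gene of the mu heavy chain that the surrogate light chain pairs with, averaged 12077 ± 657 (SD, n = 3) with EBF virus and 11591 ± 701 (SD, n = 3) with control virus. The log2 difference was 0.06, with an interval of -0.12 to 0.24. Ighm was singled out after its values were seen. Which mu transcripts its probe set detects, and whether they encode a whole heavy chain, is not known here. The members with the smallest p were Igha (-0.21; adjusted p = 0.279) and Jchain (-0.08; adjusted p = 0.547), the joining chain.

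Of 15 regulators described at these promoters 0 were called by limma, and 4 had an unadjusted p below 0.05 (2 higher, 2 lower), a share near the 19.7% of all genes. Their median was -0.01. Ets1, which acts with Pax5 at the Cd79a promoter, read 4654, 4512 and 4865 on EBF 1 to 3 and 3644, 2798 and 3484 on control 1 to 3. Its groups did not overlap, and it was not called without the block (log2 0.50 ± 0.11, SE, n = 3 per group, adjusted p = 0.0788, blocked 0.0115). Of the 6 fits that left out 1 array, Ets1 passed only in that without EBF 3 (adjusted p 0.0433, highest 0.237). Runx1, another factor of that promoter, was lower past the threshold only with the block (-0.34; 0.234, blocked 0.0323). Ikzf3, an Ikaros family member, had 0.27 (adjusted p = 0.145). The brightest probe sets of Ebf1 (0.12, interval -0.07 to 0.31), Tcf3, the E2A gene (0.10), and Pax5 (-0.07) were not called. It is not known here whether the Ebf1 probe set detects the viral transcript or whether the Pax5 probe set falls within the deletion, so neither checks the labels.

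Marker lists gave the setting in which these values stand. Of 12 pro-B markers all were measured, and 11 were above the highest Bacillus reading on average. Kit (-0.79) and Dntt (-0.70), a growth factor receptor and the terminal transferase of early lymphocytes, were called lower (adjusted p 0.0187 and 0.0226). Of these markers 0 were called higher, and over all genes 0.418% were higher and 0.671% lower. With the block 2 were higher, Il7r (0.42, blocked 0.0224) and the dim Bst1 (0.29, blocked 0.0441), and 2 lower. The blocked shares over all genes were 4.82% and 2.52%. At an unadjusted p below 0.05, 4 were higher and 4 lower, where 13.5% of all genes were higher and 6.23% lower. Kit lost the call when EBF 1, EBF 2, control 1 or control 2 was left out, and Dntt when EBF 1, EBF 2 or either of control 1 and 3 was (highest adjusted p 0.0995 and 0.106). Of 4 measured markers of later B cells Ms4a1 (CD20) rose by 1.11 (adjusted p = 0.00118), from a control mean of 256.1 that lay in the Bacillus range to 592 ± 41.5 (SD, n = 3), so the size of its change is uncertain. Another 2 of these markers were in that range in both groups. Cd22, the remaining marker, averaged 2267 with EBF virus and 2471 with control virus and was not called (log2 -0.12, adjusted p = 0.386). The summed intensity of 4 NK markers was 1585 to 1875 in the EBF arrays and 4210 to 5736 in the controls, with 2 of the 4 in the Bacillus range. Those 2, Ncr1 and Prf1, had log2 differences of 0.04 and 0.02, so the lower sum rests on Klrd1 and Nkg7. The log2 differences of Klrd1 and Nkg7 were -2.06 and -1.70 (adjusted p 0.00118 and 0.00222). The sums overlapped between groups for 11 ST2 stromal markers (14260 to 20710 against 15650 to 26650), 8 myeloid markers (5450 to 5789 against 5553 to 6240) and 6 T cell markers (4757 to 5086 against 4738 to 5368). Among them only the lysozyme gene Lyz2 was called, with a log2 difference of -0.48 (adjusted p = 0.0169), and it kept the call only without EBF 3 when 1 array was left out (highest adjusted p 0.101). In the stromal list Col3a1 (-0.27, adjusted p = 0.258) and Vcam1 (0.15, 0.285), and in the T cell list Cd3g (-0.23, 0.242) and Cd4 (0.25, 0.250), had the smallest p. Of these 3 lists, 2 genes each were in the Bacillus range, and none of the listed markers read 0, since the deposited values start at 1. The part of other cells in the values of the pre-BCR chains was not tested. In bulk RNA a smaller share of cells of one type and less RNA per cell cannot be told apart.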

How the data were processed

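The deposited values are probe set intensities on a linear scale from the authors' value table, with 1 column per array. How the authors made them (software, background, normalization) is not given in the sources used here. Per the labels' protocols, 6 microg of total RNA per array gave the biotin-labelled cRNA. The design text names a rat array, but the organism label and the platform's gene table are mouse.

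Of all probe sets 64 Affymetrix controls were left out. Trimmed means of the arrays (2% trimmed) differed by at most 3.5%, so no further scaling was applied. Values were tested as log2(intensity + 32) with limma 3.58.1 in R 4.3.3 (lmFit, eBayes, group as the only term, two-sided), after a check on simulated data. The fold changes understate the change of dim genes. No detection calls were used, and the number of arrays limits the precision. Each gene of a list was read at its brightest probe set over all arrays; no symbol differed from RefSeq. Probe sets have no coordinates here, since no build is named for the array.

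The pairing check used probe sets of above-median brightness, with a limit of 0.1 on every correlation. The labels give replicate numbers alone, so the pairing is read from the data.

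The 5 genes and the gene lists were chosen with earlier results of these data known. Genes named beside them are the 2 most correlated with each, and from each list up to 3 called in each direction, or the 2 with the smallest p; any other was chosen after its values were seen. Alternatives were pseudocounts of 1 and 128, quantile and median scaling, the mean of all probe sets of a gene for the ratios, a filter on dim probe sets, the replicate block, leaving out each array, and, chosen after seeing the data, leaving out EBF 3 and control 2 together.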

Additional observations from a re-analysis of the deposited data

How the results depend on the processing

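No pre-BCR probe set other than the dim Igll1 one changed direction under any alternative run; of the other named genes, all recomputed, only Syk did, from 0.04 to -0.006 without EBF 3 and control 2 together, called in neither. Pseudocounts, scalings and the filter on dim probe sets changed no call among the 5 genes and no count in the pathway lists by over 1.5 times; Rab43 missed the threshold with a pseudocount of 1 (adjusted p = 0.0525), and the dim Igll1 probe set fell outside that filter. The dim set's difference of 0.02 became -0.02 after quantile normalization, -0.004 after median scaling, -0.061 without EBF 3, -0.023 without control 3 and -0.035 without EBF 3 and control 2 together, none of them called; without any 1 array it ran from -0.061 to 0.10. With the replicate block, Igll1 at the brighter set (0.57, adjusted p = 0.00409) and Cd79b (0.40, adjusted p = 0.0191) passed, so that 3 pre-BCR probe sets were higher in place of 1; 5 signalling genes were lower in place of 2, and 1 promoter regulator was higher and 1 lower in place of 0. The block changed no other call among the 5 genes. The shift of the Igll1 to Vpreb1 ratio was 0.22 with the mean of all probe sets of a gene, in place of 0.49.

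Without 1 array at a time, 0 to 3 pre-BCR probe sets were called higher. The 3 came without EBF 3, where 3045 of all 45037 probe sets were called higher, in place of 155. Vpreb3 ranged from 0.62 to 0.71 and missed the threshold in 3 of the 6 fits, while Igll1 (0.45 to 0.65; adjusted p 0.02 to 0.284) and Cd79b (0.35 to 0.46; adjusted p 0.041 to 0.291) passed it without EBF 3. Signalling genes called lower numbered 1 to 5 and promoter regulators called higher 0 to 1. Both maxima also came without EBF 3, where 1242 of all probe sets were called lower, in place of 239. Without EBF 3 and control 2 together, 2 pre-BCR probe sets were higher, among them Igll1 (0.68, adjusted p = 0.0473), and 5 signalling genes lower. In that fit 1386 of all 45037 probe sets were called higher and 501 lower.

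Over all probe sets, 155 were called higher and 239 lower. These counts were 80 and 135 with a pseudocount of 1, 2199 and 1081 with the block, 1386 and 501 without EBF 3 and control 2, and 32 to 3045 and 43 to 1242 without 1 array at a time, the highest without EBF 3.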
